A study of Caenorhabditis elegans with 36 samples.

Results

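Small RNAs of ebax-1(tm2321) mutants were compared with those of wild-type worms (WT) in an early window of a larval time course of Caenorhabditis elegans. The window holds 10 of the 36 libraries of the series, namely 5 ebax-1(tm2321) libraries collected hourly from 28 to 32 h and 5 WT libraries collected hourly from 25 to 29 h after plating. The libraries were chosen by strain and hour, in a window set with earlier results of these data known. They were paired by aligned hour, because the mutant develops more slowly. The aligned hour is the collection hour in WT and the collection hour minus 3 h in the mutant. The mutant strain, HW3527, carried the tm2321 allele of ebax-1 on chromosome IV. WT worms were of the N2 strain. Both strains had been synchronized by hatching without food, plated as first-stage larvae and kept at 25 °C on bacterial food, with no other treatment, and RNA came from whole worms. One library was made per strain and hour, so p-values measure the scatter of the hourly differences between libraries, and effects of strain, of culture and of library preparation cannot be told apart. Whether ebax-1 was disrupted could not be read from the counts, because the table holds only miRNAs.

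EBAX-1 is the worm orthologue of ZSWIM8. Such proteins recruit substrates to a ubiquitin ligase of the Cullin type, and they are implicated in the decay of miRNAs. In mammals and flies this decay requires extensive pairing between the miRNA and a target. For worm miR-35, the paper cites work in which only the seed, a short stretch near the start of the miRNA, was required. The paper adds that no trigger RNA is known in worms. A miRNA hairpin yields a 5p and a 3p strand. The guide is the strand that is retained in an Argonaute protein, whereas most of the other strand, the passenger, is lost soon after processing. Decay that acts on a loaded guide can change its level without an equal change of its passenger, which is why both strands of each hairpin were examined here.

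Library totals lay between 5200112 and 5954535 counts in the mutant, and between 2832088 (25 h) and 5579822 (26 h) in WT. Of 437 rows of mature strands, 248 had enough counts to be tested, and the 189 removed rows together held 0.00607% of all counts. Levels are given as CPM, counts divided by library size, where the size was adjusted with TMM factors that correct for differences in library composition. These factors were 0.843 to 0.981 in mutant libraries, all below the 1.03 to 1.19 of WT libraries. Differences, on the log2 scale and with their SE, are mutant minus WT as fitted by edgeR with the aligned hour in the model (n = 5 libraries per strain), and a strand is called at a Benjamini-Hochberg adjusted p of less than 0.01. In whole worms, fewer cells of a type and less RNA per cell cannot be told apart.

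The first comparison asked which mature strands differed in level between the strains. In the mutant, 39 strands were higher (15.7% of those tested) and 32 were lower (12.9%). The higher strands differed by a median of 0.85, and 18 of them by more than 1. The lower strands differed by a median of -0.60, and 4 of them by more than 1. The mutant and WT libraries did not overlap for 58 strands (23.4% of those tested), among them 23 of the higher and 24 of the lower strands. Calls depended on level. Among the 83 least abundant strands 3 were higher and 6 lower, with a median SE of 0.24, whereas 23 were higher and 8 lower among the 83 most abundant strands, with a median SE of 0.10. The plot of differences against level shows the 7 tested miR-35 family guides above all other strands. The lower group was sensitive to single hours. It counted 12 strands without the libraries of aligned hour 26 and 11 without those of aligned hour 27. With library totals in place of TMM factors the median of all strands moved to -0.25, against -0.01 with TMM, and 25 strands were higher and 77 lower. Higher strands then made up 24.5% of calls, against 54.9% with TMM.

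**Figure D1:**
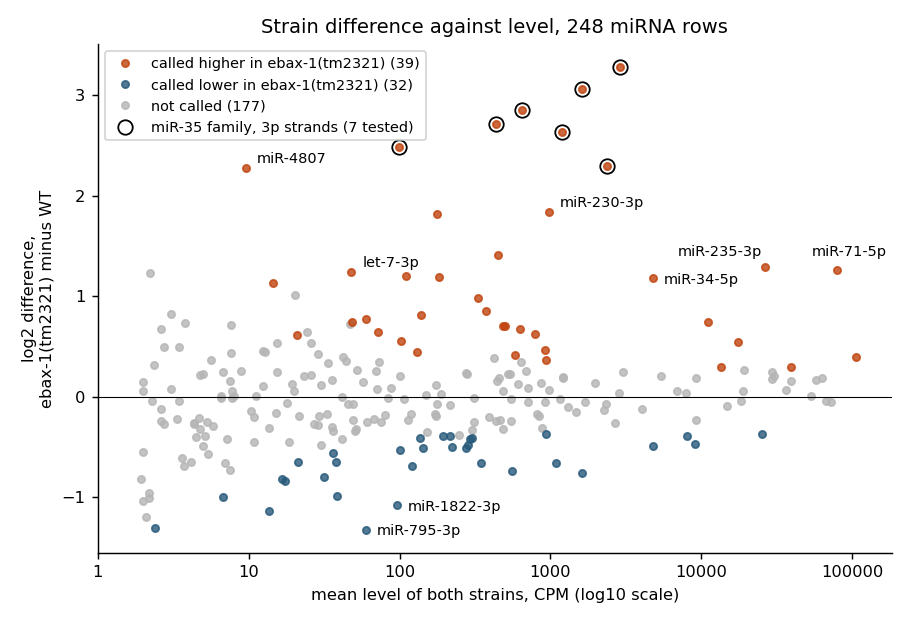
Log2 difference between strains (ebax-1(tm2321) minus WT) against the mean level of both strains in CPM on a log scale, with 1 point per tested strand and colours for strands called higher (39), called lower (32) or not called. The 7 tested guide strands of the miR-35 family, ringed, lie between 2.29 and 3.28, above every other tested strand, and miR-71-5p and miR-235-3p are the called higher strands labelled at the right.

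The miR-35 family showed the largest differences. Its 8 members share a seed and are best known from embryos, where they are essential. They lie on chromosome II in a cluster of mir-35 to mir-41, within a Y62F5A.9 intron but transcribed the other way, and, for mir-42, in an intergenic cluster with mir-43 and mir-44. All 7 guide strands that could be tested were higher in the mutant, with a median of 2.72, against -0.01 over all strands. Summed over the 8 members, the family reached 14270 to 18900 CPM in mutant libraries, against 1990 to 3106 CPM in WT libraries. As a share of library counts it was 1.49% ± 0.22 in the mutant and 0.259% ± 0.068 in WT (SD over 5 hours). These strands are also the markers of embryos and germline used here, so no separate measure of those cells was at hand.

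miR-39-3p had 5946, 6550, 4573, 4538 and 4689 CPM in mutant libraries at 28, 29, 30, 31 and 32 h, against 716, 582, 515, 478 and 425 CPM in WT at 25, 26, 27, 28 and 29 h. The lowest mutant library was far above the highest WT library, and within each strain the first 2 libraries were the highest. The difference of 3.28 ± 0.10 (9.72-fold, adjusted p = 2.655e-12) varied between 3.05 and 3.49 over the 5 aligned hours.

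miR-35-3p had 3540, 3053, 2642, 2467 and 2847 CPM in the mutant, against 435, 356, 283, 351 and 318 CPM in WT, with a difference of 3.06 ± 0.10. miR-36-3p, the member with the most reads in WT, had 4493, 4531, 3606, 3706 and 3425 CPM in the mutant, against 1179, 918, 665, 703 and 653 CPM in WT. Its difference, 2.29 ± 0.10, was the smallest among the 7 tested members. The strand mean of miR-39-3p was above that of miR-36-3p in the mutant (5259 and 3952 CPM) and below it in WT (543 and 824 CPM). miR-38-3p (2.86 ± 0.10), miR-40-3p (2.72 ± 0.11) and miR-37-3p (2.64 ± 0.10) lay between them. Thus the cluster members differed to unequal degrees, over a range of 2.29 to 3.28.

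miR-42-3p, the member from the other cluster, was the least abundant of the tested members. It had 168, 227, 170, 133 and 148 CPM in the mutant, against 39.1, 26.2, 26.5, 30.1 and 28.0 CPM in WT, with a difference of 2.49 ± 0.15. miR-41-3p was not tested because too few libraries reached 10 counts. It had 6, 46, 7, 10 and 2 counts in the mutant, against 3, 1, 2, 1 and 0 in WT, so that the library of 29 h held most of its mutant counts.

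**Figure D2:**
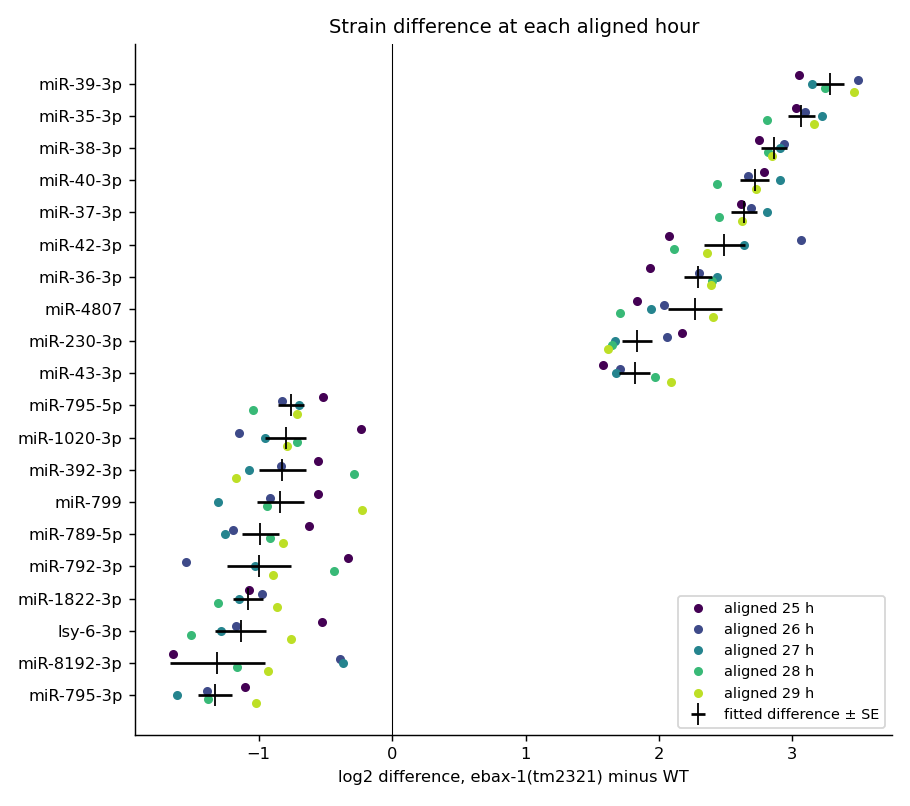
Log2 difference between strains at each of the 5 aligned hours (points, from CPM with a pseudocount of 1) and fitted difference ± SE (bars) for the 10 strands with the largest positive and the 10 with the largest negative differences among called strands with 1 sign in 5 of 5 hours. The points of miR-39-3p lie between 3.05 and 3.49 and those of miR-795-3p between -1.61 and -1.02, whereas those of miR-8192-3p, a strand of few counts, spread from -1.64 to -0.37.

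Strands from the other arm of the miR-35 family hairpins moved less. Of 6 tested, 2 were higher, miR-37-5p (1.13 ± 0.19) and miR-42-5p (0.81 ± 0.13), and the median was 0.69. With library totals 1 of the 6 was higher, and with a 4 h shift none was. miR-35-5p (0.73 ± 0.27, adjusted p = 0.0451), miR-39-5p (0.65 ± 0.23, adjusted p = 0.0383) and miR-41-5p (0.54 ± 0.19, adjusted p = 0.0377) did not pass. Nor did miR-36-5p, with 0.009 ± 0.20 (adjusted p = 0.974).

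The neighbours of mir-42 were higher too. All 6 tested strands of the cluster of mir-42, mir-43 and mir-44 passed. miR-43-3p, whose seed is shared with miR-2, had 263, 335, 243, 290 and 238 CPM in the mutant, against 87.3, 102, 75.5, 73.3 and 55.2 CPM in WT. Its difference was 1.82 ± 0.11, whereas miR-43-5p differed by 0.64 ± 0.14 and miR-44-5p by 0.98 ± 0.12. miR-44-3p (0.29 ± 0.08) and miR-45-3p (0.30 ± 0.08) gave nearly the same value, and as the authors' counting admitted multi-mapping reads, the pair may share reads. Both lost their call in each of the 5 fits without 1 aligned hour and in 7 of 12 alternative settings. In the list of miR-42-3p with both strands of miR-43, miR-44 and miR-45, 6 of 7 were higher. Of these 7, 3 were higher with library totals, 3 with a 2 h shift, 2 with a 4 h shift and 3 without aligned hour 26 or without aligned hour 27.

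Outside the miR-35 family, the guides named in the study as responding to EBAX-1 are miR-235-3p, miR-71-5p, miR-788-5p and miR-247-3p, in part on the evidence of this same time course, so the list is not independent of these samples. Of these 4 guides 2 were higher here, those of miR-71 and of miR-235. For miR-788 and miR-247 the paper describes a rapid decline that begins after the last WT hour of this window. The list used here also held miR-788-3p, the other strand of miR-788, and the median of the 5 strands was -0.23. miR-235-3p, of the miR-92 family, is known for holding blast cells of starved first-stage larvae quiescent. It had 39775, 36418, 37078, 30800 and 41922 CPM in the mutant, against 9213, 16157, 18874, 18585 and 14842 CPM in WT. The strains did not overlap, and the difference was 1.29 ± 0.15. The other strand, miR-235-5p, had too few counts to be tested, as had miR-247-5p. Neither hairpin therefore entered the comparison of guide with passenger. In order of level among tested strands miR-235-3p stood at rank 10 in the mutant and at rank 18 in WT.

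miR-71-5p, known from work on lifespan and recovery from starvation, had 100356, 106237, 108505, 110229 and 117909 CPM in the mutant, against 20633, 33495, 56985, 62790 and 75540 CPM in WT. Every mutant library was above every WT library, and the difference was 1.26 ± 0.18. It was the strand of rank 2 in the mutant and of rank 7 in WT. The call was lost with a shift of 4 h (1.20, adjusted p = 0.0112). Together miR-71-5p and miR-235-3p took 13.4% ± 0.5 of library counts in the mutant and 7.03% ± 2.48 in WT (SD over 5 hours).

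miR-788-5p and miR-247-3p did not pass in this window, which ends before the decline that the paper describes for them. miR-788-5p had 476, 493, 383, 363 and 435 CPM in the mutant, against 561, 528, 659, 517 and 438 CPM in WT, with a difference of -0.33 ± 0.12 (adjusted p = 0.0409). miR-247-3p differed by -0.23 ± 0.12. With library totals both were called lower (-0.57 for miR-788-5p and -0.47 for miR-247-3p), and with a shift of 2 h so was miR-788-5p (-0.38, adjusted p = 0.001977). The other strand, miR-788-3p, differed by -0.24 ± 0.13 and did not pass. Of the 5 strands of the list, 2 were called lower with limma on the deposited log2 values and 2 without aligned hour 29.

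**Figure D3:**
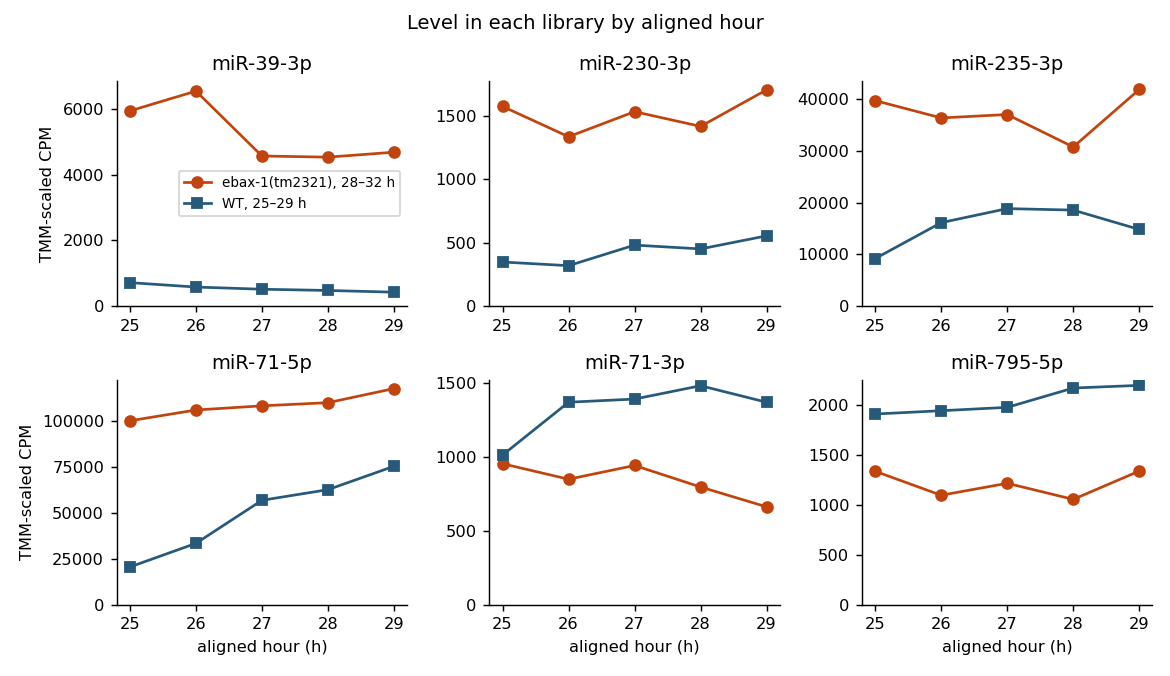
TMM-scaled CPM of 6 strands in each of the 10 libraries by aligned hour, with ebax-1(tm2321) libraries of 28 to 32 h as circles and WT libraries of 25 to 29 h as squares, 1 library per point. miR-39-3p, miR-230-3p, miR-235-3p and miR-71-5p are higher in every mutant library than in any WT library, miR-71-3p and miR-795-5p are lower, and the gap in miR-71-5p narrows because WT climbs to 75540 CPM.

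The second comparison asked whether the strain difference changed over the 5 aligned hours. miR-71-5p was the only strand of 248 whose difference changed linearly with the hour (0.403%), and 27 strands had an unadjusted p of less than 0.05 in this edgeR test. The difference in miR-71-5p fell by 0.41 ± 0.07 per hour (adjusted p = 0.009116), with slopes of 0.05 per hour in the mutant and 0.47 per hour in WT. Its hourly differences were 2.28, 1.67, 0.93, 0.81 and 0.64 at aligned hours 25, 26, 27, 28 and 29. The mutant was thus near its final level from the first library, whereas WT was still rising. No strand passed without aligned hour 25, without aligned hour 26 or without aligned hour 28, and 6 passed without aligned hour 29. The strand with the next smallest p, miR-1817, changed by 0.52 ± 0.12 per hour in the opposite direction (adjusted p = 0.0535).

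Higher strands were also found outside these groups. miR-230-3p, from an intergenic locus on the X chromosome, had 1575, 1336, 1534, 1418 and 1706 CPM in the mutant, against 348, 319, 481, 451 and 554 CPM in WT, a difference of 1.84 ± 0.11. miR-4807, also on the X chromosome, was a rare strand with 68 to 89 counts in mutant libraries, against 11 to 19 counts in WT libraries, and differed by 2.27 ± 0.20. These 2 strands completed the 10 largest called positive differences with 1 sign in every hour.

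The next 3 examples were chosen after their values were seen. miR-34-5p, the worm member of the conserved miR-34 family, had 5888, 7795, 6298, 5717 and 7514 CPM in the mutant, against 2335, 2777, 3014, 3249 and 3312 CPM in WT, a difference of 1.18 ± 0.10. miR-253-3p, from an intron of F44E7.5 on chromosome V, had 648, 561, 679, 583 and 774 CPM in the mutant, against 172, 204, 264, 276 and 320 CPM in WT, a difference of 1.41 ± 0.12. Both were separated from WT in every library. let-7-3p, the passenger of let-7, passed barely (1.24 ± 0.34, adjusted p = 0.008792) and was not separated. It had 40.2, 23.1, 36.9, 63.0 and 178 CPM in the mutant, against 59.5, 15.3, 13.9, 10.9 and 38.5 CPM in WT, so that WT was higher at the first aligned hour and the mutant at the other 4. Its call held in 3 of 12 alternative settings and in 1 of 5 fits without 1 aligned hour, with values between 0.87 and 1.93.

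Strands of the heterochronic pathway, which times larval cell fates, split by family. lin-4 and miR-237 share a seed and repress lin-14 and lin-28. miR-237-5p was higher by 0.55 ± 0.10, with 23429, 17906, 18788, 19055 and 25998 CPM in the mutant, against 15619, 14559, 14056, 13581 and 13472 CPM in WT. miR-237-3p was higher by 1.20 ± 0.19 and lin-4-5p by 0.41 ± 0.11, whereas lin-4-3p did not pass (1.02 ± 0.33, adjusted p = 0.0244). Thus 3 of 4 strands were higher, with a median of 0.78. The number was 2 with library totals and 1 with a 4 h shift, and lin-4-5p kept its call in 5 of 12 alternative settings and in 1 of 5 fits without 1 aligned hour.

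None of the 4 let-7 sisters (let-7, miR-48, miR-84 and miR-241), which drive the later larval transitions, was called. let-7-5p had 35855, 29994, 29778, 28091 and 40095 CPM in the mutant, against 27083, 30452, 27931, 28015 and 27832 CPM in WT, with a difference of 0.20 ± 0.10. The median of the sisters was 0.17 with TMM and -0.08 with library totals, where 1 of the 4 was called lower, as it was with limma on the deposited log2 values.

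The let-7-like miR-793, miR-794-5p and miR-795-5p, whose seeds resemble that of let-7, were all lower in the mutant, with a median of -0.74. miR-793 had 515, 429, 406, 381 and 369 CPM in the mutant, against 752, 753, 689, 670 and 640 CPM in WT, a difference of -0.74 ± 0.09. miR-795-5p had 1335, 1095, 1215, 1054 and 1337 CPM in the mutant, against 1908, 1941, 1974, 2167 and 2194 CPM in WT, a difference of -0.76 ± 0.10. miR-794-5p differed by -0.53 ± 0.12. No library of either strain crossed over in these 3 strands. mir-794 and mir-795 lie in 1 cluster on chromosome I, and all 3 tested strands of that cluster were lower. miR-795-3p fell furthest of all called strands, with 44.1, 36.1, 29.5, 31.4 and 30.6 CPM in the mutant, against 95.9, 96.1, 92.3, 83.1 and 63.0 CPM in WT, a difference of -1.33 ± 0.13. All 3 let-7-like strands stayed lower with library totals and under every shift, and 2 of 3 did so without aligned hour 26 or without aligned hour 27.

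Among the other lower strands, lsy-6-3p, which sets the left-right asymmetry of a pair of taste neurons, had 11.6, 9.12, 8.04, 5.77 and 8.13 CPM in the mutant, against 17.2, 21.8, 21.0, 18.2 and 14.5 CPM in WT. Its difference was -1.14 ± 0.19, and it was the only 1 of 4 neuronal markers to be called. miR-1822-3p, which lies on chromosome II within the gene ZK84.2 (intronic), had 58.0, 69.7, 60.2, 49.98 and 71.5 CPM in the mutant, against 123, 138, 134, 125 and 131 CPM in WT, a difference of -1.08 ± 0.11. Both strands were separated from WT in every library.

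The remaining strands among the 10 largest called negative differences were miR-8192-3p (-1.31 ± 0.36), miR-792-3p (-0.996 ± 0.24), miR-789-5p (-0.99 ± 0.14), miR-799 (-0.84 ± 0.18), miR-392-3p (-0.82 ± 0.17), miR-1020-3p (-0.80 ± 0.15) and miR-795-5p. miR-8192-3p rested on 5 to 12 counts in mutant libraries, against 9 to 19 counts in WT libraries, its groups overlapped, and its call was lost in each of the 5 fits without 1 aligned hour. miR-792-3p, miR-799 and miR-392-3p lost theirs without aligned hour 26 or without aligned hour 27, and miR-1020-3p without aligned hour 27.

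Of the other tissue markers, miR-60-3p was called and miR-1-3p was not. miR-1-3p of muscle had 60563 to 72137 CPM in the mutant, against 61889 to 74278 CPM in WT, and differed by -0.04 ± 0.09. miR-60-3p of the intestine had 159, 171, 180, 190 and 136 CPM in the mutant, against 194, 249, 277, 207 and 179 CPM in WT. It was lower (-0.40 ± 0.11), although the groups overlapped and the call held in 4 of 12 alternative settings. In a list of mirtrons, miRNAs spliced from short introns, miR-62 (-0.66 ± 0.12) and miR-1020-3p were lower and miR-1018 (0.62 ± 0.14) was higher, although the annotation used here places mir-1018 outside genes. miR-62 lost its call with no hour term and without a shift. miR-1018 lost its call with library totals, with limma on the deposited values, with a shift of 4 h and without aligned hour 26, 27 or 28.

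Several other families differed little with TMM scaling. None of 6 strands of the miR-51 family (median 0.21) or of 5 of the miR-58 family (median 0.01) was called. With library totals, however, 3 strands of the miR-58 family were lower. In the pair miR-61-3p and miR-247-3p (median 0.02) the strands moved in opposite directions, by 0.27 and -0.23, and neither was called. With DESeq2 size factors 1 of the pair was called higher, and with library totals 1 was called lower. In the miR-64 cluster 1 of 4 strands was lower, miR-229-5p (-0.39 ± 0.09), and it lost its call without aligned hour 26 or without aligned hour 27. In the miR-72 family 1 of 3 was higher, miR-72-5p (0.39 ± 0.08). With library totals, and with limma on the deposited log2 values, miR-72-5p was not called and 1 other strand of the family was called lower. Among 4 strands with the miR-2 seed miR-43-3p alone was higher.

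The third comparison asked whether the 2 strands of a hairpin moved together. In 88 hairpins with both strands tested, the guide was taken as the strand with the higher mean over the window, each strain weighted alike. The paper chose guides over its whole time course, and it modelled the other strand as guide for miR-42, miR-49, miR-230, miR-241 and miR-790. The log2 ratio of guide to passenger was higher in the mutant for 9 hairpins (10.2%) and lower for 5 (5.68%) by limma. The lower ratios numbered 3 without aligned hour 26 and 2 without aligned hour 27. Taken singly, 18 guides and 12 passengers were higher, and 11 guides and 9 passengers were lower. Both strands were higher in 7 hairpins and both were lower in 4. The guide alone was higher in 10 hairpins and the passenger alone in 4, and the guide alone was lower in 6 and the passenger alone in 4.

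The largest ratio differences were those of miR-39 (2.67 ± 0.23), miR-35 (2.55 ± 0.19), miR-36 (2.30 ± 0.20), miR-71 (1.92 ± 0.14) and miR-230 (1.71 ± 0.12). In the other 4 hairpins with a higher ratio it differed by 1.63 ± 0.21 (miR-37), 1.23 ± 0.12 (miR-34), 1.17 ± 0.16 (miR-43) and 0.46 ± 0.11 (miR-70). For miR-70 the guide was not called (0.05 ± 0.08), and the passenger was lower (-0.41 ± 0.11). For miR-34 and miR-230 the strands counted here as passengers hardly moved, with -0.06 ± 0.12 for miR-34-3p and 0.12 ± 0.12 for miR-230-5p. miR-230 was the only hairpin of 88 in which the more abundant strand changed between strains. In the mutant miR-230-3p averaged 1514 CPM and miR-230-5p 630 CPM, whereas in WT miR-230-3p averaged 431 CPM and miR-230-5p 581 CPM.

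The strands of 2 hairpins were called in opposite directions, miR-71 and miR-77. miR-71-3p had 955, 850, 944, 798 and 663 CPM in the mutant, against 1014, 1372, 1393, 1484 and 1372 CPM in WT, a difference of -0.66 ± 0.12, while miR-71-5p was higher. mir-71 lies with mir-2 in an intron of ppfr-1 on chromosome I, and miR-2-5p from the same cluster was called lower (-0.40 ± 0.10). The miR-2-5p call was lost with no hour term, with a shift of 2 h, without a shift, where the value was 0.023, and without aligned hour 26, 27 or 28. For miR-77 the guide, miR-77-3p, was lower by 0.37 on the log2 scale and the passenger, miR-77-5p, was higher (0.67 ± 0.11). This pattern moved with the alignment. With shifts of 0, 2, 3 and 4 h miR-77-3p differed by -0.90, -0.64, -0.37 and -0.22 and was not called at 4 h, and miR-77-5p differed by 0.10, 0.39, 0.67 and 0.87 and was not called at 0 h. miR-77-3p also lost its call without aligned hour 26, 27 or 28. The strand pair of miR-77 stood at 812 and 776 CPM in the mutant and at 1054 and 485 CPM in WT, 3p before 5p.

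A lower ratio was found for miR-42 (-1.63 ± 0.17), miR-77 (-1.04 ± 0.13), miR-789 (-1.02 ± 0.22), miR-1822 (-0.84 ± 0.20) and miR-44 (-0.68 ± 0.15). For miR-42 the 5p strand counted as the guide by its level, so the lower ratio reflects the larger rise of miR-42-3p, the strand with the family seed. For miR-789 and miR-1822 the guide was lower and the passenger was not called. A further 5p strand, miR-789-2-5p, did not enter the miR-789 ratio. Its level was not called different, with means of 43.2 CPM in the mutant and 58.4 CPM in WT.

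**Figure D4:**
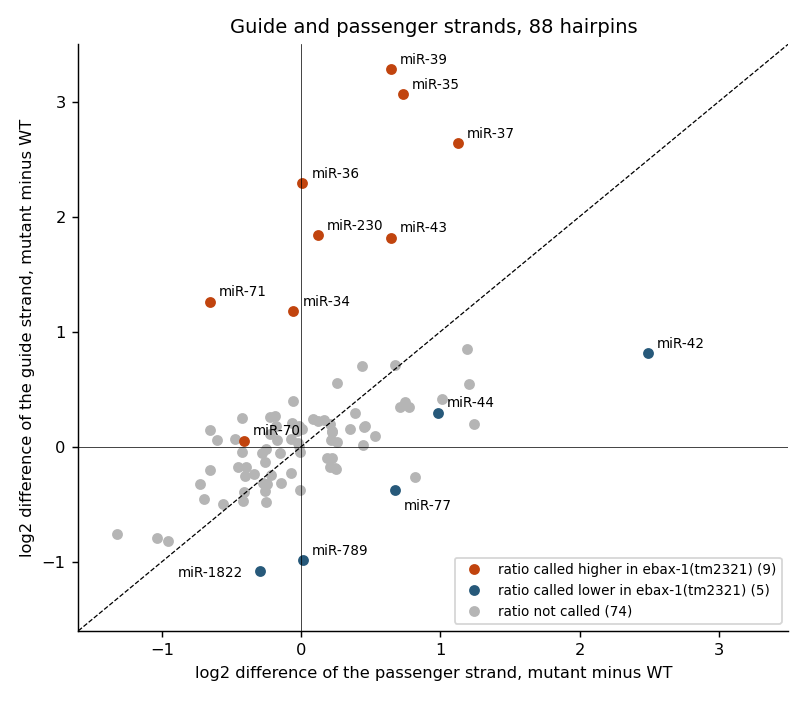
Log2 difference of the guide strand against that of the passenger strand (both ebax-1(tm2321) minus WT) for 88 hairpins, with colours for a guide-to-passenger ratio called higher (9), lower (5) or not called, and a dashed line where both strands move alike. miR-39, miR-35, miR-36, miR-37, miR-230 and miR-43 lie far above the line, miR-71 and miR-77 lie where guide and passenger have opposite signs, and miR-42 lies to the right because its 3p strand rose more than its 5p strand.

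Because the strains were compared at different clock hours, strands that change steeply over the window depended on the alignment. A list of 7 strands that rise from the third larval stage held 2 called strands, miR-357-3p (0.71 ± 0.12) and miR-246-3p (0.71 ± 0.12), with a median of 0.19. miR-246-3p had 267, 370, 532, 688 and 1041 CPM in the mutant, against 112, 203, 398, 446 and 788 CPM in WT. The level climbed within each strain by more than the strains differed. None of the 7 passed with a shift of 2 h, 3 were higher with a shift of 4 h, and 6 were lower without a shift. miR-246-3p differed by -0.87 without a shift, by 0.10 with 2 h and by 1.29 with 4 h. miR-5592-5p, chosen after its values were seen, differed by -1.61, 0.32, 1.19 and 1.86 with shifts of 0, 2, 3 and 4 h. By contrast, miR-39-3p differed by 3.58, 3.28, 3.28 and 3.14 and miR-1822-3p by -0.92, -1.15, -1.08 and -1.08 under the same shifts, and all 7 tested miR-35 family guides were higher under each of them. The plot of differences by alignment shows examples of each pattern, picked with their values known.

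**Figure D5:**
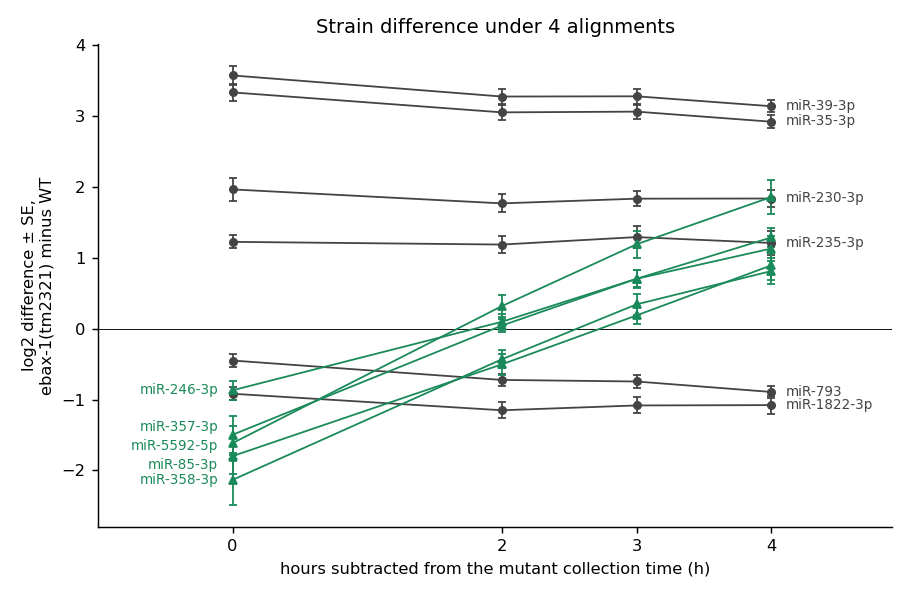
Fitted log2 difference ± SE (ebax-1(tm2321) minus WT) when 0, 2, 3 or 4 h were subtracted from the mutant collection hour. Circles are 6 called strands that kept their call and sign under each shift, and triangles are 5 strands that rise steeply with age. The circles stay on 1 side of 0, as for miR-39-3p between 3.14 and 3.58. Among them miR-793 still moved from -0.45 without a shift to -0.89 with 4 h. The triangles climb through 0, as for miR-5592-5p between -1.61 and 1.86.

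By chromosome, 18 of 43 tested strands on chromosome II were higher and 6 lower, of which 7 higher strands came from the mir-35 to mir-41 cluster and 6 from the mir-42 to mir-44 cluster. On the X chromosome 9 of 81 were higher and 8 lower, and on chromosome I 3 of 22 were higher and 7 lower. Chromosome III had 1 higher and 5 lower strands of 35, chromosome IV 3 and 2 of 34, and chromosome V 2 and 3 of 25. Over all tested strands, 15.7% were higher and 12.9% lower. The 8 tested strands that matched no hairpin, let-7-5p and let-7-3p among them, are missing from the counts by chromosome. Strands of 1 cluster may share a transcript, so they are not independent.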

How the data were processed

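The 10 libraries were prepared from whole worms with a CleanTag small RNA kit and sequenced on a NextSeq500. Per the paper's methods, the authors trimmed adapters and aligned reads to ce10 with Bowtie through QuasR, keeping reads with many matching positions, and the deposited counts are whole reads starting near the 5′ end of each miRBase mature strand, not normalized. The deposited log2 values were made by the authors from those counts, scaled by library totals, and recomputing them gave values within 5e-04. For the versions of these tools, nothing was stated in the sources used here. Reads carry no molecular identifiers.

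Rows were filtered with filterByExpr by strain (minimum count 10), scaled by TMM and tested with edgeR 4.0.16 quasi-likelihood F-tests in R 4.3.3, with the aligned hour as a factor (or strain by linear hour, centred at 27 h, for the change over time) and Benjamini-Hochberg adjustment over all 248 rows. The threshold of 0.01 is the study's. Ratios of guide to passenger (pseudocount 8) were tested with limma 3.58.1 with a trend. Scripts were tested on simulated data. The labels pair no libraries beyond the hour. Alternatives were other scalings, filters, tests (DESeq2 1.42.0, limma on the deposited log2 values), hour terms, shifts, all 30 aligned libraries, an adjusted p of 0.05 and leaving out each aligned hour.

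Named strands were the 10 largest called differences of each sign with 1 sign in 5 of 5 hours, strands with a called slope, up to 5 hairpins of each sign with the largest ratio differences, and members of 19 lists. The window, members and lists were chosen with earlier results of these data known. Chromosomes and host genes come from the Ensembl WBcel235 annotation, another build than ce10, so no coordinates are given; 240 of 248 rows matched a hairpin. Sequences of the strands were not used here.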

Additional observations from a re-analysis of the deposited data

Results flagged for a closer look

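At aligned hour 25 the difference in miR-36-3p was 1.93 on the log2 scale, apart from the other 4 hours, with a gap that took 0.732 of the whole range. It was the only 1 of 32 strands screened in this way over 5 hourly differences, and chance flags about 1 in 20. In miR-71-5p the strain difference changed over the window, with a slope of -0.41 per hour (edgeR, adjusted p = 0.009116), and the difference was positive in 5 of 5 hours.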

How the results depend on the processing

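Of the strands called for strain, 12 higher and 8 lower ones kept their call in all 17 alternative fits of the strain test, and with DESeq2 size factors, library totals and no filter together 25 higher and 29 lower ones did. A strand that was filtered out of a fit counted as having lost its call there. For miR-4807 and lsy-6-3p the only such loss was with a mean of at least 100 counts, where they were too rare to be tested. Depth limits the calls among rare strands, and only 1 library per strain and hour bounds what the p-values cover. In the strain test, 25 strands were higher and 77 lower with library totals, 25 and 74 with limma on the deposited log2 values, and 22 and 21 with no hour term, that is without the pairing of hours (no replicate block). An adjusted p of 0.05 gave 52 and 49. Without 1 aligned hour at a time, 27 to 36 were higher and 11 to 31 lower. A changed slope was found in 2 strands with no shift, in 0 with a shift of 2 h (edgeR), and in 0 to 6 without 1 aligned hour. Lower ratios numbered 3 with a pseudocount of 1, 3 with both strands at 50 counts or more, 2 with no hour term, 2 with no shift, 2 with a shift of 4 h and 2 to 5 without 1 aligned hour. With an adjusted p of 0.05, 14 ratios were higher and 10 lower. The cause of these changes was not tested. Among the strands followed by name, directions turned with no shift for miR-357-3p (-1.50), miR-246-3p (-0.87), miR-358-3p (-2.13), miR-85-3p (-1.80), miR-5592-5p (-1.61), miR-5592-3p (-1.91), miR-2-5p (0.023), miR-788-3p (0.43), miR-1-3p (0.027) and the slope of miR-1817 (-0.20), and with a shift of 2 h for miR-358-3p (-0.43), miR-85-3p (-0.50) and miR-36-5p (-0.17). With library totals and with limma, they turned for let-7-5p (-0.046 in both), miR-85-3p (-0.058 and -0.061), miR-36-5p (-0.24 and -0.22) and miR-230-5p (-0.12 in both), the last also with a shift of 4 h (-0.032). Without 1 aligned hour, values spanned -0.19 to 0.015 for miR-34-3p, -0.12 to 0.0145 for miR-1-3p, -0.17 to 0.11 for miR-36-5p and -0.032 to 0.17 for miR-230-5p. Outside the strands followed by name, miR-59-3p was called higher (0.63), but its lowest value among the alternatives was -0.935. It lost its call in 6 of 12 alternative settings, among them no shift and a shift of 2 h. Of 42 members of the lists that were tested but not called, 28 changed sign under at least 1 alternative.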
